A study of Mus musculus with 6 samples.

Results

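The genes described here encode the nuclear-encoded subunits of oxidative phosphorylation, and they were chosen by symbol alone from a table of 17830 mouse genes. The rule took the Ndufa, Ndufb, Ndufc, Ndufs and Ndufv genes for complex I without the Ndufaf assembly factors, Sdha to Sdhd for complex II, the Uqcr genes for complex III, the Cox4 to Cox8 genes for complex IV, and the Atp5 genes for complex V. It found 85 genes, of which 39 fell to complex I, 4 to complex II, 8 to complex III, 17 to complex IV and 17 to complex V. Cytochrome c1 (Cyc1) and the acyl carrier subunit Ndufab1 carry other symbols and are not among them. RNA was sequenced from tdTomato-positive cells sorted out of cultures that had grown from skull bone fragments of mice aged 6 months, on a C57BL/6J background, and the labels call these cells osteoblasts. The 3 control libraries came from mOCN-Cre; Ai9 mice, and the 3 APPswe libraries from TgAPPswemOCN-Cre; Ai9 mice. All 6 therefore carry the Cre, which is expressed from the endogenous osteocalcin gene Bglap, and the Ai9 allele, which makes tdTomato once Cre has acted. The APPswe mice add a transgene for human APP with the Swedish mutations, which a general promoter drives after Cre removes a stop cassette. Nothing in the sources states whether the libraries of a group came from separate animals or cultures, so the p-values measure the spread between libraries, which may be technical.

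Oxidative phosphorylation takes place in the inner mitochondrial membrane. Complex I oxidizes NADH and complex II oxidizes succinate, both pass electrons to ubiquinone, complex III passes them on to cytochrome c, and complex IV reduces oxygen to water. Complexes I, III and IV pump protons, and complex V, the ATP synthase, lets protons flow back and makes ATP. Most subunits are encoded in the nucleus, while a small catalytic core of complexes I, III, IV and V is encoded by mitochondrial DNA and was not analysed here. Bone-forming cells use both glycolysis and respiration, and osteoclasts and skeletal muscle fibres are known for being rich in mitochondria.

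The libraries held between 17263757 and 18398392 gene counts. A level is given in CPM, a gene's counts scaled to a common library size after TMM normalization, and 3 counts, taken as the floor of detection, correspond to between 0.167 and 0.173 CPM. This floor covers counting error only. Control 2 stood apart from controls 1 and 3: the chi-square per degree of freedom between libraries was 76.2 for controls 1 and 2 and 6.17 for controls 1 and 3. Its 4 Y-linked genes summed to 2 counts, against 2257 to 3406 in every other library, while the study describes the mice as male. In the library names control 2 carries the letter S and all others the letter L, which no source explains. Control 2 is therefore named as labelled, and whether it belongs with the other controls could not be settled from the sources. Each control mean with n = 3 includes it. The median of 12 osteoblast markers was 1.91 CPM in control 2, the lowest of the 6 libraries. Their sum there was 17566 CPM, against 17997 and 18849 CPM in controls 1 and 3 and 11644 to 12284 CPM in APPswe libraries. Control 2 was lowest of all libraries for 8 of the 12 and highest for 2, Col1a1 and Col1a2. Osteocalcin itself had 0.0562 CPM in control 2, below the floor, and between 6.45 and 11.5 CPM elsewhere. The median of 12 macrophage markers was 497 to 547 CPM in the controls but 381 to 396 CPM in the APPswe libraries, and 6 of the 12 fell. All 9 skeletal muscle markers tested rose, with a summed level of 2.25 to 12.5 CPM in control and 185 to 192 CPM in APPswe libraries, and 5 of 7 osteoclast markers rose, from a sum of 158 to 290 CPM to a sum of 719 to 731 CPM. Of the 12 osteoblast markers 2 rose and 1 fell, and without control 2, 4 rose and 6 fell. The 5 endothelial markers summed to 190 and 196 CPM in controls 1 and 3, 26.8 CPM in control 2 and 9.47 to 11.1 CPM in the APPswe libraries. Kdr held 25.5 CPM of the sum in control 2 and was highest there. For the other 4 markers control 2 was the lowest library. With all libraries 1 of these 5 fell, and without control 2 all 5 fell, with a median log2 fold change of -4.36. None of 5 proliferation markers passed, although their sum was 701 CPM in control 2 and 245 to 292 CPM in the other libraries. The part of these other cell types in the values below was not tested, and in bulk samples fewer cells of a type cannot be told apart from less RNA per cell.

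Of the 85 genes, 82 passed the filter on low counts and were compared between genotypes among 13484 genes, with edgeR's quasi-likelihood test and Benjamini-Hochberg adjustment over all of them. A gene is said to rise or fall where its adjusted p was 0.05 or less. In APPswe libraries 11 of the 82 rose and none fell, while 71 passed in neither direction. The share that rose was 13.4%, near the 10.5% of all genes tested, and the share that fell was 0, against 12.0% of all genes. By edgeR's test, 22 members were higher and 0 lower at an unadjusted p under 0.05, and DESeq2 and limma also called no member lower. Only Cox6a2 rose by at least 2-fold, a limit that 7.34% of all genes passed in either direction. Most differences were small and pointed upward: 70 of 82 log2 fold changes (85.4%) were positive, against 49.6% of all genes, and their median was 0.21, against -0.0033 over all genes. The 3 APPswe libraries lay above all 3 controls for 36 members (43.9%, against 22.8% of all genes) and below them for 2 (against 22.2% of all genes). Those 2 were Ndufs8 and Uqcrc1, and neither passed the test.

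**Figure D1:**
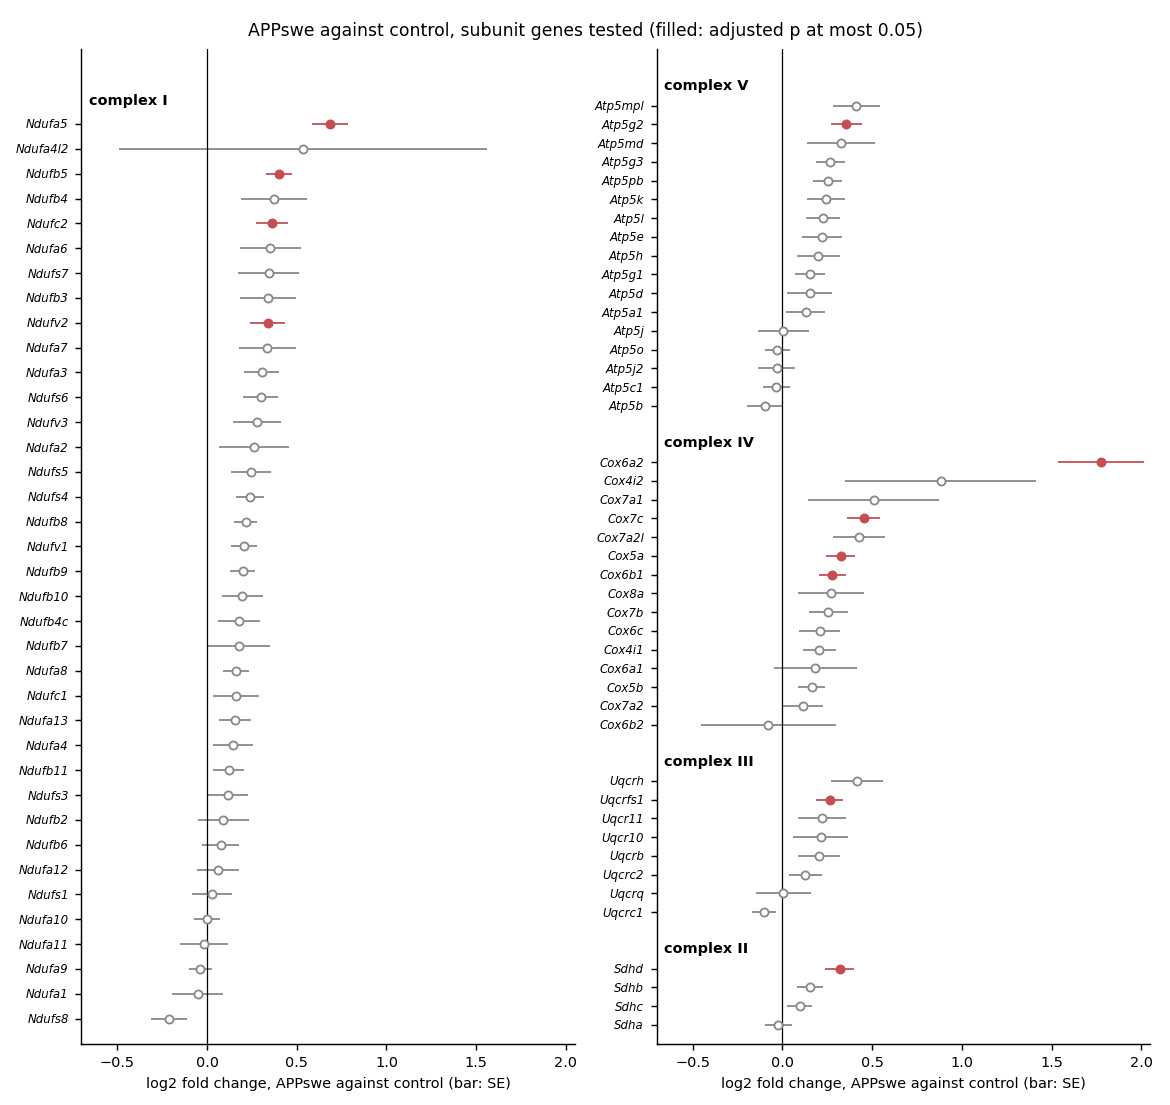
Log2 fold change of APPswe against control (horizontal axis) for the genes tested, 1 of the 82 left out, grouped by complex, with bars of 1 standard error. Filled red points mark the 11 genes whose adjusted p was 0.05 or less, and open grey points those that did not pass. Most points lie to the right of 0, with Cox6a2 farthest out at 1.78 and Ndufs8 farthest left at -0.21.

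Summed over its genes, every complex was higher in the APPswe libraries, and the lowest APPswe sum exceeded the highest control sum each time. Complex I summed to 2442 ± 222 CPM in control and 2798 ± 71.3 CPM in APPswe libraries (SD, n = 3 here and in the following sums). Complex II summed to 571 ± 13.0 CPM in control and 610 ± 8.42 CPM in APPswe libraries, and complex III to 750 ± 58.1 CPM and 836 ± 13.3 CPM. The sum for complex IV was 1786 ± 168 CPM in control and 2144 ± 96.5 CPM in APPswe libraries, and that for complex V was 3122 ± 56.0 CPM and 3366 ± 72.5 CPM. Control 2 had the lowest sum of the 6 libraries for complexes I, III and IV, while its sum was the highest of the controls for complex V. All 85 genes together made up 8671 ± 388 CPM of control and 9755 ± 256 CPM of APPswe libraries. No test was run on these sums.

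**Figure D2:**
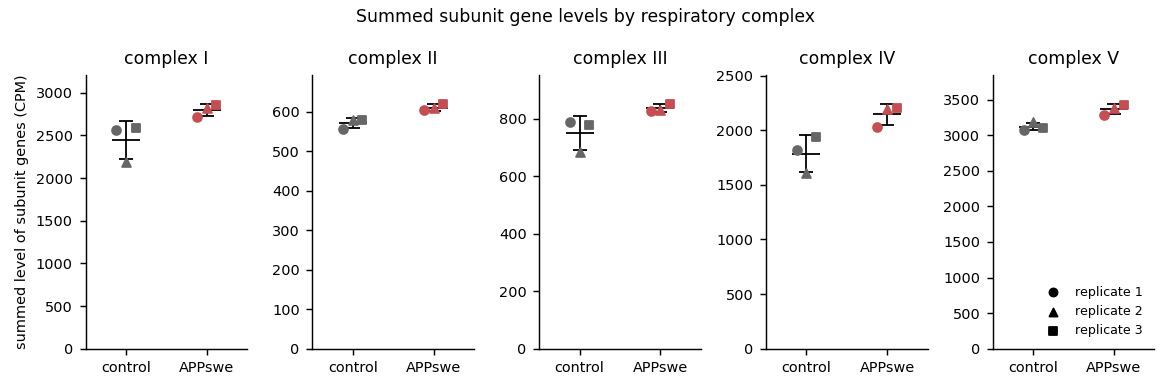
Summed level of the subunit genes of each complex (CPM, vertical axis from 0) in the 3 control and 3 APPswe libraries. Symbols give the replicate number, and the horizontal dash with bars gives the mean and SD. The APPswe points lie above all control points in each of the 5 panels, and control 2 (triangle) is lowest for complexes I, III and IV.

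Promoters of these genes are known for sites of NRF1, of ETS family factors such as GABP, of YY1 and of the estrogen-related receptors. RefSeq promoter sequences (GRCm38.p6) were found for 69 of the 85 genes in 74 windows, and the 250 bases before each start were searched on both strands. The NRF1-type letters CGCNTGCGC were present in 20.3% of the members' windows and in 5.16% of all 32851 promoter windows. The ETS-type letters CCGGAAG were in 16.2% of members' windows and 6.91% of all, the YY1-type letters ATGGCGG in 6.76% and 2.21%, and the receptor half-site AAGGTCA in 6.76% and 4.08%. None of these motifs contains another, although the NRF1 letters nearly read the same on both strands, so that neighbouring matches overlap. Of the 11 genes that rose, 10 had promoters in the table, in 11 windows. An NRF1-type match lay in 4 of these windows, 2 of which are overlapping windows of Ndufa5 that hold the same site, an ETS-type match in 2, a YY1-type match in 1 and a receptor half-site in 0. The NRF1-type and ETS-type matches, found in 4 of these genes, are shown once each with 10 bases on either side, written 5′ to 3′ on the gene's strand, here the minus strand for each, with the matched letters in capitals. The first, of Atp5g2, lies at chr15:102671070-102671099, the second, of Ndufa5, at chr6:24527698-24527726, the third and the fourth, both of Sdhd, at chr9:50603910-50603938 and chr9:50603879-50603905, and the last, of Cox6b1, at chr7:30626126-30626152. Bases before a RefSeq start can lie in exons annotated by GENCODE. Of the stretches shown, these held 30 of 30 bases for Atp5g2, 29 of 29 for Ndufa5 and 26 of 27 for Cox6b1. For Sdhd they held 29 of 29 bases of the NRF1-type and 0 of 27 of the ETS-type stretch. A match is a description of letters and does not show that a factor binds there.
Atp5g2 NRF1-type: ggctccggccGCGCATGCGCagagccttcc
Ndufa5 NRF1-type: tgtgtgagctGCGCAGGCGcaaatctacc
Sdhd NRF1-type: tcgctggggtGCGCACGCGcggtggcagc
Sdhd ETS-type: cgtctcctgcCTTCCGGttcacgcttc
Cox6b1 ETS-type: cctctcgcagCTTCCGGccagtcggaa

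In complex I no gene fell and the median log2 fold change was 0.20. Of its 38 genes 4 rose, the same 10.5% as over all genes. The clearest was Ndufa5, an accessory subunit of the arm that reaches into the matrix (NCBI gene 68202, chr6:24518662-24527690 in GRCm38.p6). Its level was 21.5, 18.8 and 23.0 CPM in controls 1 to 3 and 34.5, 34.0 and 33.4 CPM in the APPswe libraries. The APPswe values lay within about 1 CPM of each other and all above the controls, a 1.61-fold difference of means (log2 fold change 0.69, SE 0.10, edgeR adjusted p = 0.00554). Ndufb5, an accessory subunit of the membrane arm, was at 49.7, 47.0 and 46.3 CPM in control and 65.4, 61.7 and 61.5 CPM in APPswe libraries (log2 fold change 0.40, SE 0.07, edgeR adjusted p = 0.0110). Its 2 groups were each narrow and did not overlap. Ndufc2, another subunit of the membrane arm, was at 65.4, 54.5 and 62.3 CPM against 75.5, 77.8 and 80.5 CPM (log2 fold change 0.36, SE 0.09, edgeR adjusted p = 0.0309). These 3 are accessory subunits, which surround the core that carries the electrons.

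Among the 7 core genes of complex I that the nucleus encodes, only Ndufv2 rose. Ndufv2 sits beside the NADH-binding subunit and holds an iron-sulfur cluster, and was at 71.6, 59.6 and 58.2 CPM in control and 79.8, 80.6 and 78.9 CPM in APPswe libraries (log2 fold change 0.34, SE 0.10, edgeR adjusted p = 0.0469). Ndufv1, which binds NADH, was separated in the same direction without passing (log2 fold change 0.21, edgeR adjusted p = 0.0876). Ndufs1, Ndufs3 and Ndufs7 had log2 fold changes of 0.03, 0.12 and 0.34, and the groups overlapped for each. Ndufs8, another iron-sulfur subunit, had the most negative value of all 82 genes, at 47.4, 57.6 and 47.8 CPM in control and 41.9, 45.7 and 44.1 CPM in APPswe libraries (log2 fold change -0.21, SE 0.10, edgeR adjusted p = 0.173). Its highest value was that of control 2. The electron-carrying core of complex I held the member with the most negative value as well as one that rose.

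The FPKM scale divides counts by transcript length and so allows levels of different genes to be compared. FPKM carry no TMM scaling, and the length used varied by library. Group differences in FPKM, here and below, are therefore not those in CPM and can be larger. The complex I genes tested ran from 22.9 to 688 FPKM with a median of 128 FPKM over all libraries. Ndufa3 and Ndufa4 were the highest, at 585 ± 81.7 and 351 FPKM in control and 790 ± 15.7 and 415 FPKM in APPswe libraries (SD, n = 3). Neither passed the test, with edgeR adjusted p-values of 0.0662 for Ndufa3 and 0.380 for Ndufa4. Although its symbol places it with complex I, Ndufa4 is now held to be a subunit of complex IV. Its paralogue Ndufa4l2, which is known as a target of hypoxia signalling that restrains respiration (NCBI gene 407790, chr10:127509274-127517154), differed in 1 library only. Its counts were 2145, 39 and 2528 in controls 1 to 3 and 2161, 2376 and 2422 in the APPswe libraries, or 124, 2.19 and 143 CPM against 121, 132 and 136 CPM. Control 2 stood at 0.0164 of the mean of the other controls, while the remaining 5 libraries lay together. The log2 fold change was 0.54 with an SE of 1.03 (edgeR adjusted p = 0.743), and without control 2 it was -0.03 (edgeR adjusted p = 0.750).

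Complex II, the succinate dehydrogenase of the citric acid cycle, has only nuclear-encoded subunits. Of its 4 genes 1 rose (25%, against 10.5% of all genes). That gene was Sdhd, which encodes a membrane anchor, at 93.7, 90.7 and 97.8 CPM in control and 107, 122 and 123 CPM in APPswe libraries (log2 fold change 0.32, SE 0.08, edgeR adjusted p = 0.0334). The other anchor, Sdhc, had a log2 fold change of 0.10 (SE 0.07, edgeR adjusted p = 0.365), and the iron-sulfur subunit Sdhb one of 0.15 (SE 0.07, edgeR adjusted p = 0.161). APPswe libraries lay above all controls for both. Sdha, the flavoprotein that oxidizes succinate, was at 224, 253 and 237 CPM in control and 238, 231 and 233 CPM in APPswe libraries, so the groups overlapped (log2 fold change -0.02, edgeR adjusted p = 0.844). By FPKM, Sdhc and Sdhb were the highest of the 4, at 154 and 110 FPKM in control and 174 and 130 FPKM in APPswe libraries.

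In complex III, 1 of 8 genes rose (12.5%, against 10.5% of all genes) and the median log2 fold change was 0.21. Uqcrfs1, the Rieske iron-sulfur protein that takes the first electron from ubiquinol, was at 69.2, 68.2 and 68.2 CPM in control and 76.3, 85.0 and 85.4 CPM in APPswe libraries (log2 fold change 0.26, SE 0.07, edgeR adjusted p = 0.0461). The 3 controls agreed within about 1 CPM, and control 2 did not stand apart for this gene. Uqcrh, the hinge protein near cytochrome c1, had a larger but more scattered difference, from 137, 93.2 and 113 CPM to 165, 147 and 145 CPM (log2 fold change 0.41, SE 0.15, edgeR adjusted p = 0.0853). The core proteins, which face the matrix, split: Uqcrc1 was at 146 ± 5.62 CPM in control and 136 ± 3.42 CPM in APPswe libraries (SD, n = 3), with no overlap (edgeR adjusted p = 0.321), and Uqcrc2 had a log2 fold change of 0.13 with overlap (edgeR adjusted p = 0.347). Uqcrh and Uqcr11 were the highest by FPKM, at 384 and 394 FPKM in control and 547 and 494 FPKM in APPswe libraries.

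In complex IV, cytochrome c oxidase, 4 of 15 genes rose (26.7%, against 10.5% of all genes) and none fell. The median log2 fold change was 0.27, the highest of the 5 complexes. Cox7c, a small membrane subunit, was at 148, 120 and 142 CPM in control and 188, 188 and 186 CPM in APPswe libraries (log2 fold change 0.45, SE 0.09, edgeR adjusted p = 0.0176). Cox5a, which lies on the matrix side, was at 104, 102 and 108 CPM against 119, 137 and 139 CPM (log2 fold change 0.32, SE 0.08, edgeR adjusted p = 0.0347). Cox6b1, on the side of the intermembrane space, was at 175, 154 and 169 CPM against 202, 200 and 202 CPM (log2 fold change 0.28, SE 0.08, edgeR adjusted p = 0.0402). These 3 genes had their lowest level in control 2, and their APPswe libraries lay above every control. Cox6b1 and Cox7c had the highest FPKM of all 85 genes averaged over the 6 libraries, although Cox4i1, at 761 FPKM, was above both in control. They stood at 751 ± 53.9 and 689 ± 80.3 FPKM in control and 977 ± 26.5 and 1013 ± 25.3 FPKM in APPswe libraries (SD, n = 3). Cox4i1, the general form of subunit 4, and Cox5b had log2 fold changes of 0.21 and 0.16 without passing (edgeR adjusted p = 0.150 and 0.165).

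Several complex IV subunits come in alternative forms made in different tissues, and the member with the largest difference was one of these. Cox6a2, the form of subunit 6a found in heart and skeletal muscle (NCBI gene 12862, chr7:128205435-128206366), was at 1.16, 1.01 and 1.07 CPM in control and 2.86, 4.18 and 4.10 CPM in APPswe libraries. The groups were far apart, a 3.44-fold difference of means (log2 fold change 1.78, SE 0.24, edgeR adjusted p = 0.00396). It remained a small part of subunit 6a: of the summed FPKM of Cox6a1 and Cox6a2, Cox6a2 held 0.499%, 0.567% and 0.340% in controls 1 to 3 and 1.33%, 1.37% and 1.30% in the APPswe libraries. Cox8b, the muscle form of subunit 8, had too few reads to test, with 1, 0 and 1 counts in control and 3, 6 and 5 counts in APPswe libraries. Cox7a1, the muscle form of subunit 7a, was at 1.39, 0.956 and 1.75 CPM against 1.57, 1.45 and 2.81 CPM, with overlapping groups (log2 fold change 0.51, SE 0.36, edgeR adjusted p = 0.351). Muscle markers moved with the first of these: Myog, a muscle differentiation factor, was at 0.113 to 0.281 CPM in control and 9.19 to 9.78 CPM in APPswe libraries. The part of muscle cells in the Cox6a2 difference was not tested.

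The broadly expressed partner of Cox6a2 behaved differently. Cox6a1 was at 178, 137 and 241 CPM in control and 162, 231 and 239 CPM in APPswe libraries, and the spread within each group exceeded the difference between them (log2 fold change 0.18, SE 0.23, edgeR adjusted p = 0.606). Cox7a2l, a relative of Cox7a2 that helps hold complexes III and IV together in supercomplexes (NCBI gene 20463, chr17:83501917-83514333), was at 144, 194 and 133 CPM in control and 218, 202 and 213 CPM in APPswe libraries. All APPswe values exceeded the controls, but control 2 came close to them, and the gene did not pass (log2 fold change 0.43, SE 0.14, edgeR adjusted p = 0.0775). Without control 2 it rose (log2 fold change 0.61, edgeR adjusted p = 2.9e-05). Its share of the subunit 7a FPKM was 44.4%, 57.6% and 44.3% in controls 1 to 3 and 52.3%, 54.9% and 54.5% in the APPswe libraries. Cox7a2 itself had a log2 fold change of 0.11 with overlapping groups (edgeR adjusted p = 0.510).

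Cox4i2, the form of subunit 4 associated with low oxygen, and Cox6b2, the testis form of subunit 6b, were both lowest in control 2. Cox4i2 had 33, 8 and 47 counts in control and 48, 56 and 61 counts in APPswe libraries, and control 2 held 0.197 of the mean level of controls 1 and 3. The APPswe libraries lay above all controls, narrowly so over control 3, and the gene did not pass (log2 fold change 0.88, SE 0.53, edgeR adjusted p = 0.273). Cox6b2 had 174, 65 and 192 counts in control and 135, 148 and 132 counts in APPswe libraries, so that control 2 lay below and controls 1 and 3 above all APPswe libraries. Over all libraries its log2 fold change was -0.08 (edgeR adjusted p = 0.901), and without control 2 it fell, by 0.43 on the log2 scale (edgeR adjusted p = 0.0111). Cox7b2, the testis form of subunit 7b, had 1 count in APPswe 2 and 0 counts in the other libraries.

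**Figure D3:**
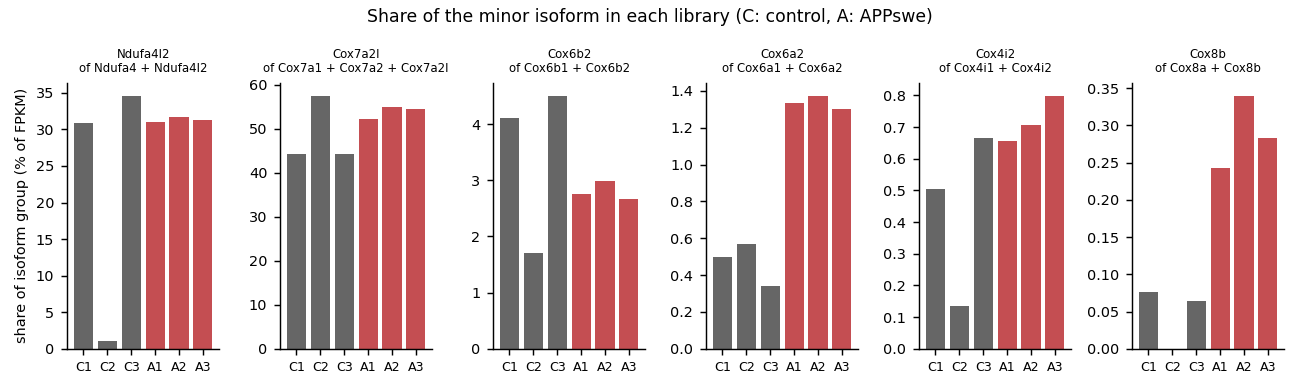
Share of the named form in the summed FPKM of its isoform group (percent, vertical axis from 0, with a scale of its own in each panel) in controls 1 to 3 (C1 to C3, grey) and APPswe 1 to 3 (A1 to A3, red). Cox6a2 and Cox8b are higher in each APPswe library than in any control, while Ndufa4l2, Cox6b2 and Cox4i2 are lowest, and Cox7a2l highest, in control 2.

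In complex V, 1 of 17 genes rose (5.88%, against 10.5% of all genes) and the median log2 fold change was 0.20. Atp5g2, 1 of 3 genes for the same c ring protein through which the protons pass, was at 144, 148 and 152 CPM in control and 170, 198 and 200 CPM in APPswe libraries (log2 fold change 0.36, SE 0.09, edgeR adjusted p = 0.0294). The controls, control 2 included, lay close together, and APPswe 1 was the lowest of its group. Atp5g3 was separated in the same direction (log2 fold change 0.27, SE 0.08, edgeR adjusted p = 0.0587), while Atp5g1 overlapped (log2 fold change 0.15, SE 0.08, edgeR adjusted p = 0.233). The shares of the 3 genes in the c ring FPKM hardly moved, with Atp5g2 at 38.0% to 38.9% in control and 39.4% to 41.0% in APPswe libraries.

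The 5 genes of the catalytic F1 head did not pass. Atp5b, which encodes the catalytic beta subunit and has the highest CPM of all members, was at 668, 827 and 692 CPM in control and 673, 678 and 696 CPM in APPswe libraries (log2 fold change -0.10, edgeR adjusted p = 0.525). Atp5a1, the alpha subunit, was at 461, 582 and 466 CPM against 551, 554 and 546 CPM (log2 fold change 0.13, edgeR adjusted p = 0.422). For both genes control 2 was the highest of all 6 libraries. Without it, Atp5a1 rose (log2 fold change 0.25, edgeR adjusted p = 0.00343) and Atp5b stayed at 0.01 (edgeR adjusted p = 0.916). The gamma, delta and epsilon subunits Atp5c1, Atp5d and Atp5e had log2 fold changes of -0.03, 0.15 and 0.22 with overlapping groups. Of the 4 genes of the peripheral stalk, which keeps the head from turning, Atp5pb was separated upward (log2 fold change 0.25, edgeR adjusted p = 0.0688), and Atp5h, Atp5j and Atp5o overlapped. Of the small membrane subunits, Atp5mpl and Atp5l were separated upward (log2 fold changes 0.41 and 0.22, edgeR adjusted p = 0.0643 and 0.140). Atp5l and Atp5k were the most abundant complex V genes by FPKM, at 680 and 589 FPKM in control and 849 and 769 FPKM in APPswe libraries.

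**Figure D4:**
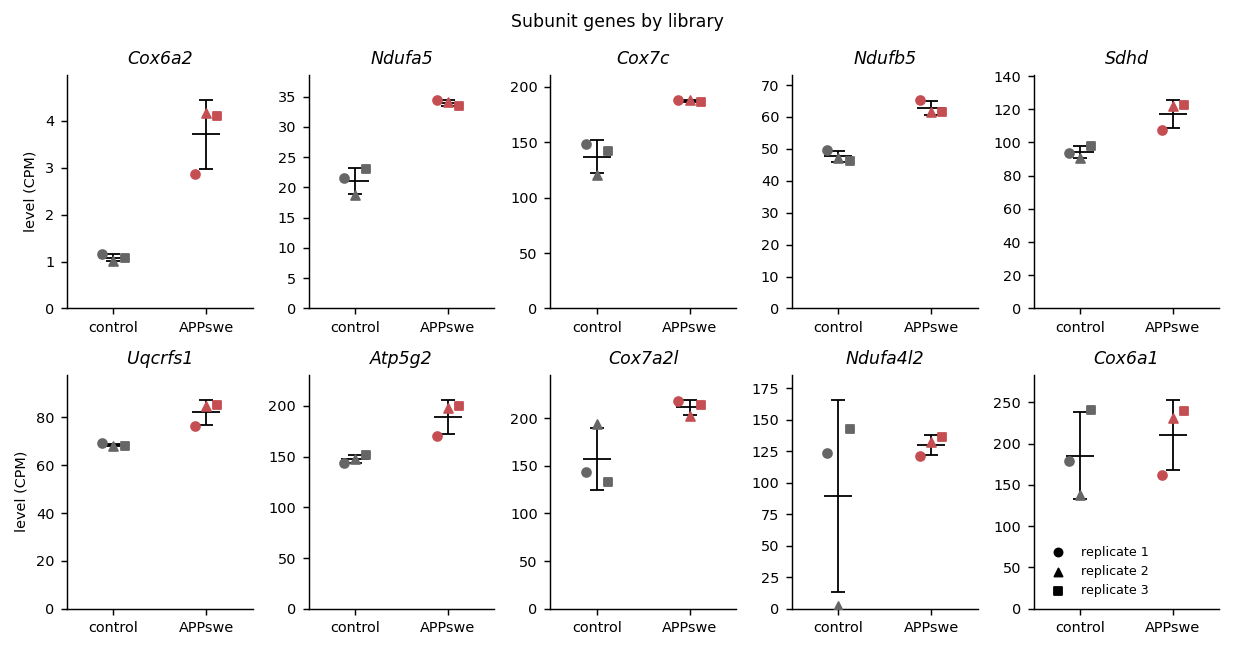
Level (CPM, vertical axis from 0) of 10 subunit genes in each library, with symbols for the replicate number and the mean and SD of each group (n = 3). The first 7 panels hold genes that rose. Cox7a2l is separated with control 2 close to the APPswe group, Ndufa4l2 is near 0 in control 2 alone, and Cox6a1 varies as much within groups as between them.

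Control 2 shaped many of these values. It was the lowest of all 6 libraries for 54 of the 82 members (65.9%, against 28.9% of all genes) and the highest for 8 (9.76%, against 28.0%). By complex, it was lowest for 14 of 15 genes of complex IV, 24 of 38 of complex I, 5 of 8 of complex III, 9 of 17 of complex V and 2 of 4 of complex II. The median log2 ratio of control 2 to the other controls was -0.23 over the members and -0.01 over all genes. Without this library 25 members rose, which is 30.5% of the 82, against 23.3% of all genes, and 1 fell, against 25.0% of all genes. All 11 genes that rose with 6 libraries were among the 25. The same held for each of the 1414 genes that rose over all genes, so it is not particular to the members. The median log2 fold change of the members was then 0.14, against 0.02 for all genes, and that of complexes I to V was 0.15, 0.12, 0.10, 0.15 and 0.14.

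Transcript length moved with the position of control 2. The length implied by a gene's counts and its FPKM was under 300 bases for 27 members, and control 2 was the lowest library for 26 of these, with a median log2 ratio to the other controls of -0.35. Control 2 was lowest for 20 of the 27 members of 300 to 600 bases, with a median of -0.23. Of the 28 longer members it was lowest for 8, with a median of 0.01. Spearman's rho across genes between implied length and this ratio was 0.62 over the 82 members and 0.25 over all genes tested, where genes are not independent replicates and share their libraries. The log2 fold change between genotypes had a rho with length of -0.38 over the members, which was -0.12 without control 2. Over all genes, the 142 of under 300 bases had a median log2 fold change of 0.26, the 391 of 300 to 600 bases 0.11, and the longer ones -0.01. The 27 shortest members, which are among those 142, had a median of 0.24. The 28 members over 600 bases had a median of 0.13, against -0.01 for all genes of that length, and 4 of them rose, namely Ndufb5, Ndufv2, Sdhd and Uqcrfs1. Without control 2, the median over all genes was 0.20 for those under 300 bases, 0.06 at 300 to 600 and 0.01 beyond. For members of these lengths it was 0.17, 0.14 and 0.11. The part of length in the difference between genotypes was not tested.

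**Figure D5:**
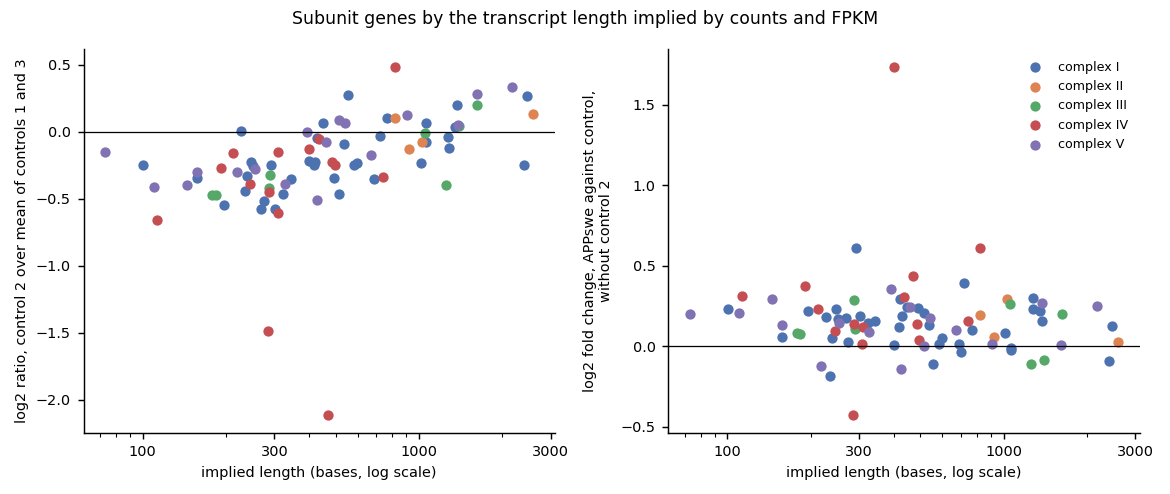
Implied length of each member (bases, log axis) against the log2 ratio of control 2 to the mean of controls 1 and 3 (left) and against the log2 fold change of APPswe against control without control 2 (right), with colours for the complexes. Ndufa4l2, at -5.86, lies outside the left panel and is not drawn. The left cloud climbs from about -0.35 for genes under 300 bases to about 0 for those over 600 bases, and the right one has little slope.

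The names of the libraries come in a pair of styles, with a hyphen for controls 1 and 2 and APPswe 1, and with a low line (_) for control 3 and APPswe 2 and 3. No source says what the styles mean. The 3 low-line libraries lay above the 3 hyphen libraries for 15 members (18.3%, against 6.04% of all genes) and below them for 1 member, Ndufa12 (against 5.25%). The 15 were Ndufa2, Ndufa4l2, Ndufa6, Ndufa11, Ndufb2, Ndufb6, Ndufb10, Ndufc1, Ndufs7, Uqcr10, Uqcrq, Cox6a1, Cox8a, Atp5d and Atp5e. Cox6a1, given above, and Cox8a, at 192, 155 and 231 CPM in control and 186, 254 and 259 CPM in APPswe libraries, were the most abundant of them. None of the 15 rose or fell between genotypes. The order by which they were picked makes the genotype groups overlap, so a call was unlikely from the start. Within the hyphen libraries, 68 of the 82 members were higher in APPswe with a median log2 ratio of 0.20, and within the low-line libraries 67 were, with a median of 0.15. Of all 13484 genes, 6574 and 6975 were higher. The hyphen libraries include control 2, which was the lowest library for 54 of the 82 members. In both styles at once 61 members (74.4%) were higher, against 40.6% of all genes.

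Differences among the genes around the respiratory chain varied by list, and no difference between lists was tested. Of all genes tested, 10.5% rose and 12.0% fell. Of 57 assembly factors tested for the 5 complexes, which build the enzymes and are not part of them, 1 rose and 1 fell, and the median log2 fold change was 0.07. Nubpl, which delivers iron-sulfur clusters to complex I, rose from 4.12 to 5.56 CPM in control to 7.81 to 8.30 CPM in APPswe libraries (log2 fold change 0.72, edgeR adjusted p = 0.0217). Ndufaf3, another complex I assembly factor, fell (log2 fold change -0.45, edgeR adjusted p = 0.0414). In the citric acid cycle 1 of 14 genes rose and none fell. Idh2, the mitochondrial isocitrate dehydrogenase that makes NADPH, was at 48.6, 63.6 and 50.3 CPM in control and 88.3, 89.9 and 87.0 CPM in APPswe libraries (log2 fold change 0.71, SE 0.11, edgeR adjusted p = 0.00753). Of 12 genes of pyruvate dehydrogenase and its regulation, the inhibitory kinases Pdk1 and Pdk3 rose (log2 fold changes 0.56 and 0.41, edgeR adjusted p = 0.00988 and 0.0192), and the phosphatase Pdp2 fell (-0.65, edgeR adjusted p = 0.0244).

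Of 12 electron carriers and other genes of the chain, Etfb, which carries electrons from fatty acid oxidation, and the uncoupling protein gene Ucp2 rose (log2 fold changes 0.56 and 0.51, edgeR adjusted p = 0.00519 and 0.0407), and none fell. Cytochrome c (Cycs) did not pass (log2 fold change 0.02, edgeR adjusted p = 0.921). Of 18 regulators of mitochondrial biogenesis tested, Gabpb1, the partner of the ETS factor Gabpa, rose (log2 fold change 0.44, edgeR adjusted p = 0.0279), as did Mterf1a, which binds mitochondrial DNA (0.81, edgeR adjusted p = 0.0209). Polrmt, the mitochondrial RNA polymerase, fell (-0.62, edgeR adjusted p = 0.0240). Gabpa, Nrf1, Yy1 and Esrra, whose factors are known to bind the letters searched above, had log2 fold changes of -0.02, 0.24, -0.11 and 0.10 without passing. APPswe libraries lay above all controls for Nrf1, which rose without control 2 (log2 fold change 0.28, edgeR adjusted p = 0.0167), while the other 3 factors did not pass there either. The coactivator gene Ppargc1a was not tested, with levels of 0.0562 to 0.564 CPM. Of 78 genes named as mitochondrial ribosomal proteins, which translate the mitochondrially encoded subunits, 7 rose and 2 fell, with a median of 0.09. The share that rose was 1.75% of assembly factors, 7.14% of the citric acid cycle and 8.97% of ribosomal proteins, against 10.5% of all genes. It was 11.1% of biogenesis regulators and 16.7% each of the pyruvate dehydrogenase and electron carrier lists. The share of a list that fell was between 0 and 8.33%, against 12.0% of all genes.

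The sequence similarity of a few members limits their values. Ndufb4, Ndufb4b and Ndufb4c are near copies, among which reads could be divided differently by another counting method. Ndufb4b had 5 counts in control 1, 4 in APPswe 1 and 0 elsewhere, and was not tested, while Ndufb4 and Ndufb4c had log2 fold changes of 0.37 and 0.18 with overlapping groups. Over the 15 alternative fits, Cox6a2 and Ndufa5 passed in all 15, Ndufb5 in 13, Cox7c in 12 and Atp5g2 in 11. The other 6 genes that rose passed in 7 to 10 of the 15.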

How the data were processed

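Per the labels, RNA of sorted cells was made into SMARTER mRNA-Seq libraries, and the submitters' processing notes name GRCm38. The aligner and counter are not given in the sources used here. The authors deposited raw counts per gene. The authors also gave FPKM, whose blank cells (397 genes in hyphen-style and 716 in low-line-style libraries) were read as 0. Their own log2 fold changes and p-values between genotypes, in the deposited table, were not used.

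The count test used edgeR 4.0.16 under R 4.3.3 (TMM, filterByExpr, glmQLFit, glmQLFTest without covariates). The SE is the absolute log2 fold change over the square root of F. The implied length, counts over FPKM and library total, is an effective length that varied by library. For Atp5k it was 77.65, 79.15 and 69.66 bases in controls 1 to 3 and 68.5, 73.57 and 72.41 bases in APPswe 1 to 3. No pair among the 15 was alike within counting error (lowest chi-square per degree of freedom 1.59, APPswe 2 and 3). The next lowest was 6.17, for controls 1 and 3. Each library counted as 1 replicate, but a difference beyond counting error does not show separate animals or cultures. Alternatives were DESeq2 1.42.0, limma 3.58.1 on log2(FPKM + 1) or log2(FPKM + 0.1), other scalings and filters, a replicate block, name style as covariate, and each library left out. The scripts were tested on simulated data.

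The members, companion lists and markers were chosen with earlier results of these data known, and the mitochondrial ribosomal list was added later. Genes were named if past both thresholds, among the 3 most changed of those passing per complex or companion list, among the 2 most abundant per complex, in an isoform group, core subunits, or untested. Other genes named, among them those ordered by name style, Uqcrh, Atp5mpl, Ndufb4, Cycs and the regulators matched to the motifs, were chosen after their values were seen. The values of 1 complex I gene are not reported here.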

Additional observations from a re-analysis of the deposited data

How the results depend on the processing

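The direction of the members' median log2 fold change and the single 2-fold call (Cox6a2) were kept under all 15 alternatives, but the number of members that rose (11) varied. It was 20 with library totals in place of TMM, and 23 with limma on log2(FPKM + 1) or on log2(FPKM + 0.1), where the median was 0.30 in both. Over all genes, library totals gave 1840 higher and 1286 lower calls, and the limma fits 1920 and 1088 or 1879 and 1121, against 1414 and 1622 with TMM. DESeq2 called 15 members higher, including all 11, its size factors in edgeR 11, the unfiltered fit 9, the stricter filter 11, and the name style covariate 9, 7 of them among the 11. In these fits between 7.4% and 10.3% of all genes were called higher. With single libraries left out the number ran from 2 to 25: 2 without APPswe 2 or without APPswe 3, 4 without control 3, 6 without APPswe 1, 9 without control 1 (6 of them among the 11) and 25 without control 2. The share of all genes called higher was 4.91%, 3.69% and 3.49% without APPswe 1, 2 and 3. It was 6.48%, 23.3% and 6.59% without controls 1, 2 and 3. The number of members that fell ran from 0 to 1, the 1 being Cox6b2 without control 2, and the members' median from 0.14 to 0.23. The cause was not tested. With the replicate number as a block, 6 members rose, 5 of them among the 11, while 6.92% of all genes rose. Deviations of same-numbered libraries correlated at 0.09, -0.05 and 0.21. Controls 1 and 3 correlated best with the APPswe library of the same number, and control 2 with APPswe 1. These few values cannot decide whether the numbers pair the samples.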
